A study of Mus musculus with 10 samples.

Results

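Macroautophagy and the lysosome are described here by 39 genes, chosen by name: the ULK initiation complex, the class III PI3K complex, the ATG9, ATG2 and WIPI proteins, the conjugation machinery, the ATG8 family, cargo receptors, the transcription factors TFEB and TFE3 with sestrin 1, and 6 lysosomal proteins. All 39 were among the 12148 genes of the deposited count table, and all 39 were among the 12147 genes tested. Whole liver RNA was sequenced from 5 wild-type germ-free (GF) C57BL/6 mice dosed by mouth over several weeks with microbiota-derived extracellular vesicles in PBS (GF+MEV) and from 5 such mice given PBS alone (GF+PBS), with 1 library per mouse. The vesicles had been purified from gut content and stool of mice with a microbiota, so they were a mixture and not the product of a single strain. Both groups lacked a gut microbiota of their own. Age, sex, feeding state and the hour of liver collection of these GF mice are not given in the sources used here.

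Macroautophagy encloses cytoplasm in a double membrane, the autophagosome, and delivers it to the lysosome for breakdown. In fasted liver it releases amino acids and lipids, and it is held back by the nutrient-sensing kinase mTORC1 and promoted by AMPK. The ULK kinase complex starts the process, the class III PI3K complex makes the lipid signal that WIPI proteins read, ATG9 and ATG2 bring lipid to the growing membrane, and a ubiquitin-like conjugation system attaches ATG8 proteins such as LC3 to it. Cargo receptors tether what is to be degraded, and cathepsins in the lysosome digest it. TFEB and TFE3 are transcription factors of many lysosomal genes and bind E-box sequences, CACGTG. What was measured is messenger RNA only. LC3 lipidation, protein levels and autophagic flux were not measured in these samples.

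Library totals ranged from 15746119 to 20523649 counts on genes, and a member had between 53 and 11008 counts in a library. Levels are given below as CPM, counts scaled to library sizes that TMM had adjusted, and changes as log2 fold changes of GF+MEV over GF+PBS with standard errors (SE) from edgeR's quasi-likelihood fit over all tested genes, with Benjamini-Hochberg adjusted p-values and a threshold of 0.05. GF+MEV replicate 2 stood apart from its group, with a TMM factor of 0.890. The chi-square of its counts against the other GF+MEV livers was 135 to 176 per gene. The other pairs within a group lay between 6.36 and 25. By the root mean square log2 difference over the 300 genes most variable among GF+MEV livers, it stood apart less. Its pairs lay at 1.24 to 1.33, and other GF+MEV pairs at 0.922 to 1.21. Values without GF+MEV replicate 2 are given where they differ. Nothing in the labels names separate cages or litters, so p-values measure the spread between these livers.

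The messenger RNA of 4 members was higher in GF+MEV livers, and of none lower. These were *Ulk1*, the kinase that starts autophagosome formation (1.45-fold), *Map1lc3b*, which encodes the autophagosome marker LC3B (1.29-fold), and both ATG2 lipid transfer proteins, *Atg2b* (1.32-fold) and *Atg2a* (1.21-fold). They are 10.3% of the members. Among all tested genes 7.64% passed the same threshold, 4.12% higher and 3.52% lower. The other 35 members, which include the main cargo receptor, both TFE factors and all 6 lysosomal proteins, did not pass it in this fit. By an unadjusted p under 0.05, 7 members were higher and 0 lower, where 10.8% of all tested genes were higher and 10.4% lower. DESeq2 called 6 members higher and 0 lower, against 9.89% of all genes called in either direction, and limma-voom called 5 higher and 0 lower, against 7.79%.

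**Figure D1:**
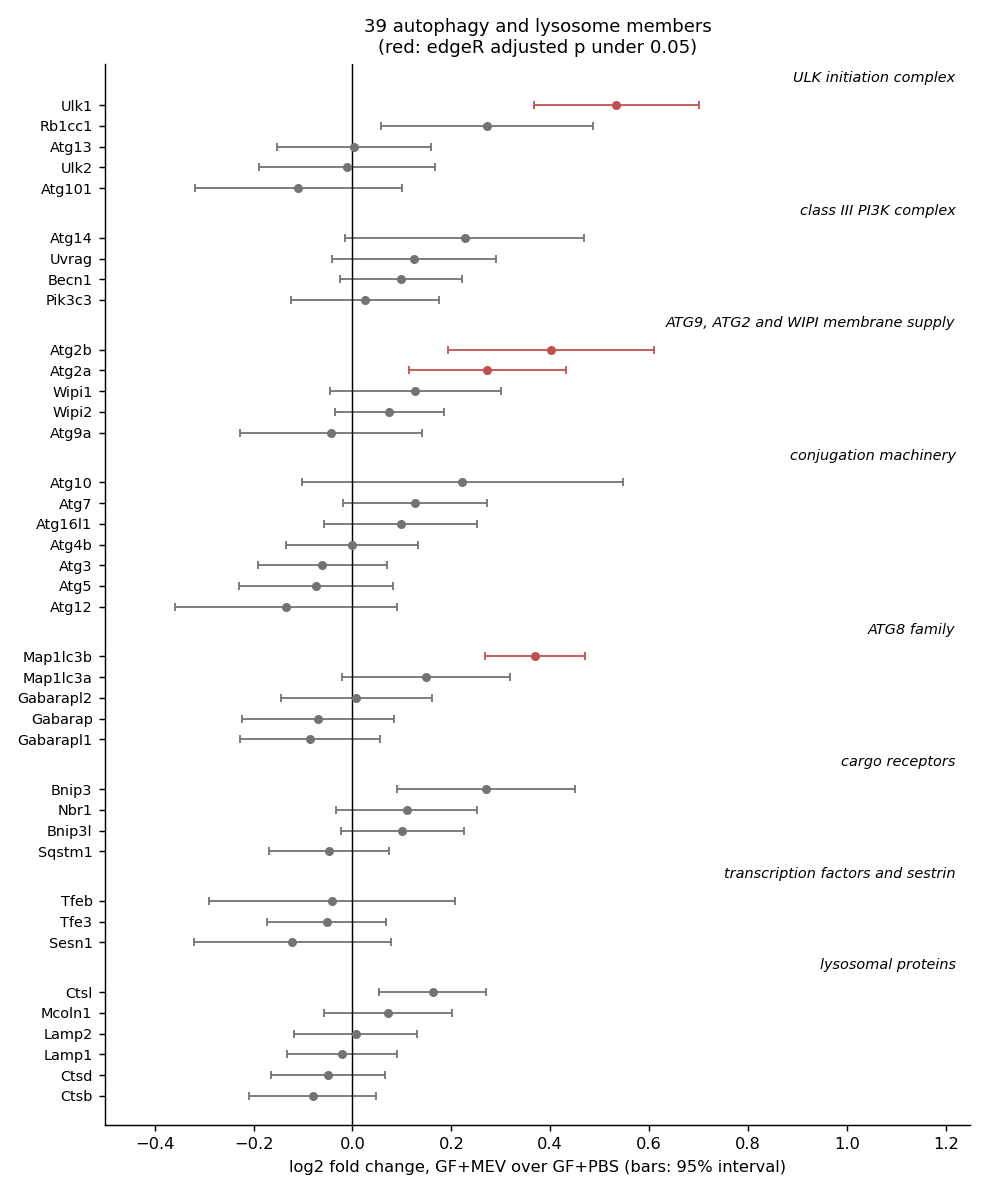
Log2 fold change of GF+MEV over GF+PBS for each of the 39 members (horizontal axis), grouped by role, with dots for the estimates, bars for their 95% intervals from 5 livers per group, and red for an edgeR adjusted p under 0.05. *Ulk1*, *Map1lc3b*, *Atg2b* and *Atg2a* are red, and the other 35 estimates lie between -0.13 and 0.27.

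*Ulk1* (ENSMUSG00000029512) lies on chromosome 5 of GRCm38 from 110784488 to 110810097, on the minus strand, and its exons overlap no other annotated gene. In the 5 GF+MEV livers its level was 160.4, 161, 196, 160.5 and 160.2 CPM in the order of the replicate numbers, and in the 5 GF+PBS livers 98.7, 125, 114, 118 and 123 CPM. The ranges did not meet, and GF+MEV replicate 3 was higher than the other four of its group, which were nearly equal. The means were 168 ± 16.1 CPM (SD, n = 5) and 116 ± 10.6 CPM (SD, n = 5), a log2 fold change of 0.53 (SE 0.078, edgeR adjusted p = 0.00051).

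*Map1lc3b* (ENSMUSG00000031812) lies on chromosome 8 from 121590361 to 121598760, on the plus strand. GF+MEV livers held 165, 172, 171, 175 and 172 CPM of it, and GF+PBS livers 134, 129.6, 131, 138 and 129 CPM. Both groups were tight and far apart, with coefficients of variation of 2.29% and 2.71%, against medians over the members of 6.33% and 8.74%. Its log2 fold change was 0.37 (SE 0.047, edgeR adjusted p = 0.00017). Part of its exons overlaps *Zcchc14* on the other strand, and the library kit is not stated to keep strand, so reads from the shared bases cannot be assigned to one gene. *Zcchc14* itself ranged from 41.5 to 47.4 CPM in GF+MEV and from 31.6 to 46.4 CPM in GF+PBS livers (log2 fold change 0.11, edgeR adjusted p = 0.53).

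*Atg2b* (chromosome 12, 105616136 to 105685211, minus strand) and *Atg2a* (chromosome 19, 6241668 to 6262335, plus strand) encode proteins that carry lipid from the endoplasmic reticulum into the growing autophagosome. *Atg2b* was at 41.5, 41.5, 44.9, 39.5 and 42.6 CPM in GF+MEV livers and at 25.4, 36.5, 27.8, 32.1 and 37.4 CPM in GF+PBS livers, which gave a log2 fold change of 0.40 (SE 0.097, edgeR adjusted p = 0.020). The groups did not overlap, but GF+PBS replicates 1 and 3 were the 2 lowest. Without GF+PBS replicate 3 the adjusted p was 0.056, and without GF+MEV replicate 3 it was 0.053. Its exons overlap those of *Gskip* on the other strand, which was at 7.80 to 12.4 CPM in GF+MEV and 5.96 to 8.29 CPM in GF+PBS livers (log2 fold change 0.37, edgeR adjusted p = 0.14), and the part of these reads in the count of *Atg2b* was not tested.

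*Atg2a* was at 127, 109.8, 132, 109 and 107 CPM in GF+MEV livers and at 85.9, 95.2, 98.0, 105 and 100.5 CPM in GF+PBS livers. The groups were adjacent, and GF+MEV replicates 1 and 3 were well above the others. Its log2 fold change was 0.27 (SE 0.074, edgeR adjusted p = 0.037), the smallest of the 4, and it passed the threshold in 9 of 19 alternative settings. Leaving out GF+MEV replicate 1 or 3 raised the adjusted p to 0.092 and 0.093, and leaving out GF+PBS replicate 1, 2, 3 or 5 raised it to 0.075, 0.068, 0.070 and 0.051.

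**Figure D2:**
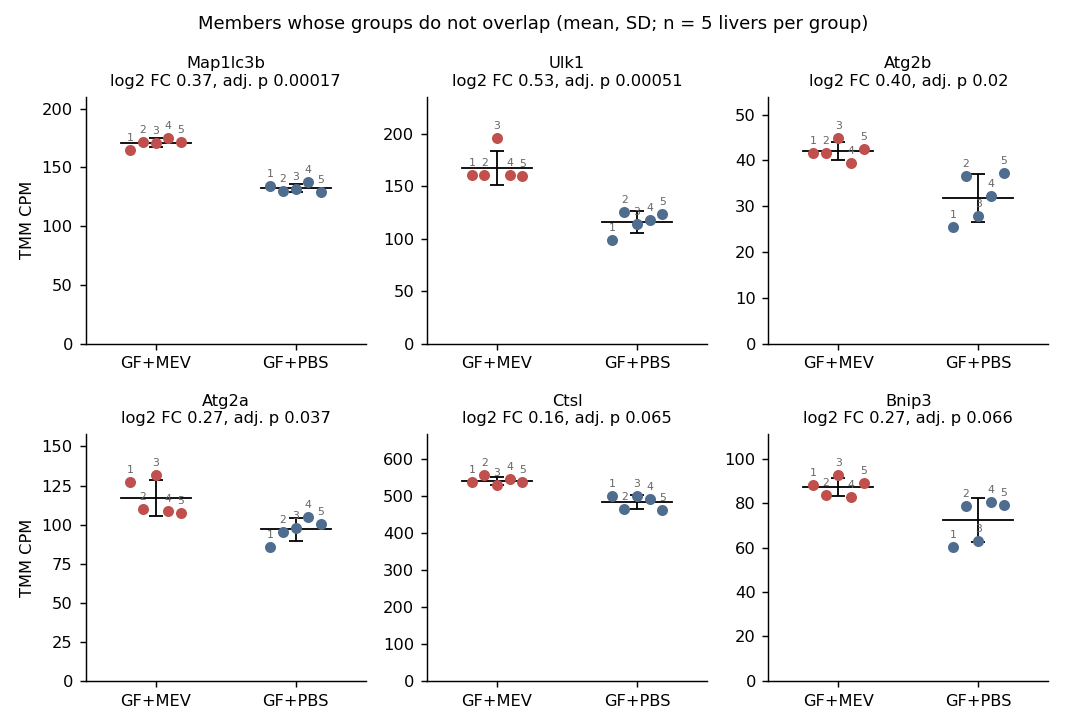
TMM CPM (vertical axis, from 0) in each of the 5 GF+MEV and 5 GF+PBS livers, numbered by replicate, for the 6 members whose groups do not overlap, with lines and bars for mean and SD. The GF+MEV points lie above the GF+PBS points in every panel, and *Ctsl* and *Bnip3* have adjusted p-values of 0.065 and 0.066.

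Values of 6 members did not overlap between the groups, each higher in GF+MEV. That is 15.4% of the members, where 7.39% of all tested genes did not overlap in either direction and 3.94% were higher without overlap. Beside the 4 above they were *Ctsl*, which encodes the lysosomal protease cathepsin L, and *Bnip3*, which encodes a mitophagy receptor. *Ctsl* ranged from 529 to 556 CPM in GF+MEV and from 462 to 499 CPM in GF+PBS livers, and its log2 fold change was 0.16 (SE 0.050, edgeR adjusted p = 0.065). *Bnip3* ranged from 82.9 to 92.6 CPM and from 60.3 to 80.5 CPM, a log2 fold change of 0.27 (SE 0.084, edgeR adjusted p = 0.066). Both have exons that overlap other annotated transcripts. In all, 14 of the 39 members do.

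Within the ULK complex only the *Ulk1* estimate passed the threshold. The paralogous kinase *Ulk2* was at 77.2 to 106 CPM in GF+MEV and 82.4 to 98.3 CPM in GF+PBS livers (log2 fold change -0.012, edgeR adjusted p = 0.96), the adaptor *Atg13* had a log2 fold change of 0.0025 and *Atg101*, which stabilises ATG13, of -0.11. *Rb1cc1*, the FIP200 scaffold of the complex, was at 30.8 to 38.6 CPM against 25.5 to 35.6 CPM (log2 fold change 0.27, SE 0.100, edgeR adjusted p = 0.12), with groups that overlapped. Without GF+PBS replicate 5 its adjusted p was 0.035. The summed level of the 5 genes was 384 to 412 CPM in GF+MEV and 333 to 361 CPM in GF+PBS livers, with means of 403 and 349 CPM. *Ulk1* alone made up 168 and 116 CPM of these means.

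In the class III PI3K complex no gene passed, and all 4 estimates were above 0. *Becn1*, the Beclin 1 scaffold, was at 33.2 to 36.2 CPM against 30.6 to 34.5 CPM, and *Pik3c3*, the lipid kinase itself, at 18.3 to 21.9 CPM against 19.7 to 21.4 CPM. *Atg14*, which directs the complex to autophagosomes, had a log2 fold change of 0.23 (SE 0.11, edgeR adjusted p = 0.27) with 1 high liver, GF+MEV replicate 4, at 27.5 CPM. *Uvrag*, the subunit of the endosomal form, had one of 0.12. Among the membrane supply genes outside the ATG2 pair, the scramblase *Atg9a* and the lipid readers *Wipi1* and *Wipi2* had log2 fold changes of -0.04, 0.13 and 0.07, and their groups overlapped.

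None of the 7 genes of the conjugation machinery passed, with 3 estimates above 0 and 4 below, and a median log2 fold change of -0.0012. The E1-like enzyme *Atg7* was at 51.4 to 55.2 CPM in GF+MEV and 41.7 to 52.7 CPM in GF+PBS livers (log2 fold change 0.13), the E2-like enzyme *Atg3* at 67.8 to 82.0 CPM against 74.6 to 81.1 CPM (-0.06), and the protease *Atg4b*, which primes and recycles ATG8 proteins, at 30.3 to 31.8 CPM against 28 to 33.6 CPM (-0.0012). *Atg5*, *Atg12* and *Atg16l1*, the parts of the E3-like complex, had log2 fold changes of -0.07, -0.13 and 0.10. *Atg10*, the E2-like enzyme for ATG12, was the least precise member, at 3.42 to 4.88 CPM against 2.68 to 4.05 CPM. Its 95% interval on the log2 scale ran from -0.10 to 0.55.

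*Map1lc3b* was the ATG8 family member that passed the threshold. The 3 GABARAP genes, whose products act with LC3 in autophagosome closure and cargo capture, had log2 fold changes of -0.07 (*Gabarap*), -0.09 (*Gabarapl1*) and 0.0080 (*Gabarapl2*), and *Map1lc3a*, the other LC3 gene, of 0.15 (edgeR adjusted p = 0.30). Ratios of related members within a liver do not depend on how libraries were scaled. The 9 given here were chosen after the values were seen, each built on a member whose groups were known not to overlap, so they are a description with no test. *Map1lc3b* was at 1.04 to 1.26 times the CPM of *Gabarap* in GF+MEV livers and at 0.740 to 0.914 times in GF+PBS livers, and at 0.607 to 0.652 against 0.402 to 0.487 times that of *Gabarapl1*. Its ratio to *Gabarapl2* also did not overlap between the groups, at 3.12 to 3.67 against 2.44 to 2.98. Against *Map1lc3a* the ratio overlapped, at 2.63 to 3.19 in GF+MEV and 2.27 to 2.99 in GF+PBS livers.

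Of the kinase pair, *Ulk1* was at 1.51 to 2.33 times *Ulk2* in GF+MEV and 1.18 to 1.43 times in GF+PBS livers. *Ctsl* was at 1.07 to 1.28 times *Ctsb* in GF+MEV against 0.862 to 1.05 times in GF+PBS livers, and at 3.52 to 3.86 against 2.98 to 3.30 times *Ctsd*, without overlap. Ratios of *Atg2b* to *Atg2a* and of *Bnip3* to *Bnip3l* overlapped. Their differences between group means were 0.15 and 0.18 on the log2 scale.

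**Figure D3:**
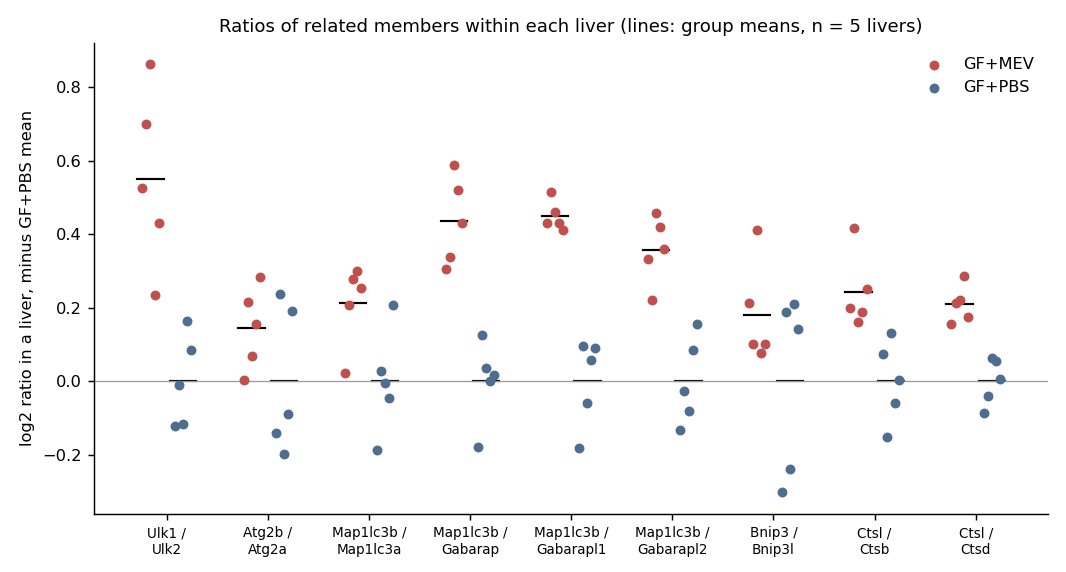
Log2 ratio of related members within each liver, less the mean of the GF+PBS livers (vertical axis), for 9 pairs (horizontal axis), with a dot per liver and a line for each mean of 5. Ratios of *Ulk1* to *Ulk2*, of *Map1lc3b* to the 3 GABARAP genes and of *Ctsl* to *Ctsb* and *Ctsd* do not overlap between the groups, and the other 3 do.

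By edgeR none of the 4 cargo receptors passed, while *Bnip3* did with DESeq2 (adjusted p = 0.033). *Sqstm1*, the p62 receptor for ubiquitinated cargo and a target of NRF2, was at 440.2, 426, 454, 436 and 430.4 CPM in GF+MEV and 488, 433, 479, 438 and 422 CPM in GF+PBS livers (log2 fold change -0.05, SE 0.056). Its 95% interval ran from -0.17 to 0.07, and GF+PBS replicates 1 and 3 were the highest livers. *Nbr1*, which works with p62, was at 218 to 233 CPM against 179.6 to 232 CPM (log2 fold change 0.11), and *Bnip3l*, the mitophagy receptor NIX, at 69.4 to 82.8 CPM against 69.0 to 74.1 CPM (0.10).

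The transcription factors *Tfeb* and *Tfe3* were among the members lowest per length, and their groups overlapped. *Tfeb* was at 9.32 to 12 CPM in GF+MEV and 9 to 13.1 CPM in GF+PBS livers (log2 fold change -0.04, 95% interval -0.29 to 0.21), and *Tfe3* at 25.8 to 27.0 CPM against 25.7 to 28.3 CPM (-0.05, 95% interval -0.17 to 0.07). Both proteins are regulated by phosphorylation and entry into the nucleus, which RNA does not show. *Sesn1*, a sestrin that restrains mTORC1, was at 15.9 to 21.2 CPM against 19.1 to 24.3 CPM (log2 fold change -0.12, edgeR adjusted p = 0.50).

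By edgeR none of the 6 lysosomal proteins passed, while *Ctsl* did with DESeq2 (adjusted p = 0.0050) and limma-voom (adjusted p = 0.044). *Lamp1* and *Lamp2*, which line the lysosomal membrane, had log2 fold changes of -0.02 (95% interval -0.13 to 0.09) and 0.0065 (-0.12 to 0.13). *Ctsb* and *Ctsd*, the proteases cathepsin B and D, had -0.08 and -0.05, and the calcium channel *Mcoln1* 0.07. Their summed level with *Ctsl* was 2204 to 2341 CPM in GF+MEV and 2178 to 2305 CPM in GF+PBS livers. Kupffer cells, the liver's macrophages, are rich in lysosomes, and in whole liver fewer cells of a type and less RNA per cell cannot be told apart. By edgeR none of 12 Kupffer cell and macrophage markers passed the threshold (0 also at an unadjusted p under 0.05), 10 of the 12 had estimates below 0, with a median log2 fold change of -0.15, and their sum was 335 to 614 CPM in GF+MEV and 383 to 538 CPM in GF+PBS livers (exact permutation p = 0.40).

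Of the 35 members that did not pass, 34 had a 95% interval inside ±0.5 on the log2 scale, and the exception was *Atg10*. The called *Map1lc3b* (0.27 to 0.47) and *Atg2a* (0.11 to 0.43) also lay inside it, while *Ulk1* and *Atg2b* did not. This bound therefore does not part called from uncalled members. The median half-width of the intervals over all members was 0.15, and the median log2 fold change of the members was 0.025 against -0.0037 over all tested genes. Estimates were above 0 for 23 members and below for 16, and above 0 for 49.0% of all tested genes. The sum of all 39 was 4870 to 5055 CPM in GF+MEV and 4714 to 4907 CPM in GF+PBS livers, which overlap. Without GF+MEV replicate 2 the median was 0.06 and 4 members were called. Scaling affects the split over all genes: 53.9% of all calls were higher after TMM, 41.2% after upper-quartile scaling and 32.5% with library totals alone, and the median of the members then moved to -0.02 and -0.05.

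Expressed per exon length, as RPKM, the members spanned from 1.87 ± 0.19 (SD, n = 5 GF+MEV livers; *Tfeb*) to 196 ± 8.08 (*Lamp1*). After *Lamp1* came *Gabarapl1* at 136 ± 4.72 and *Sqstm1* at 130.3 ± 3.16 RPKM, which overlapped each other, and then *Gabarap*, *Ctsb* and *Ctsl*, which did not all differ beyond their spread. *Map1lc3b*, at 22.7 ± 0.52 RPKM in GF+MEV and 17.6 ± 0.48 RPKM in GF+PBS livers, stayed below *Map1lc3a* (48.3 ± 2.84 and 43.5 ± 5.05 RPKM), *Gabarapl1* and *Gabarap* in both groups. That order rests on the merged exon length, 7517 bases for *Map1lc3b* and 1181 for *Map1lc3a*, which counts every annotated exon whether or not the liver uses it. *Ulk1* stood at 25.8 ± 2.48 and 17.8 ± 1.63 RPKM and *Ulk2* at 15 ± 1.84 and 15.1 ± 1.19 RPKM. *Atg2b*, at 3.12 ± 0.15 and 2.37 ± 0.39 RPKM, was lower per length than *Atg2a*, at 15.2 ± 1.49 and 12.6 ± 0.92 RPKM.

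**Figure D4:**
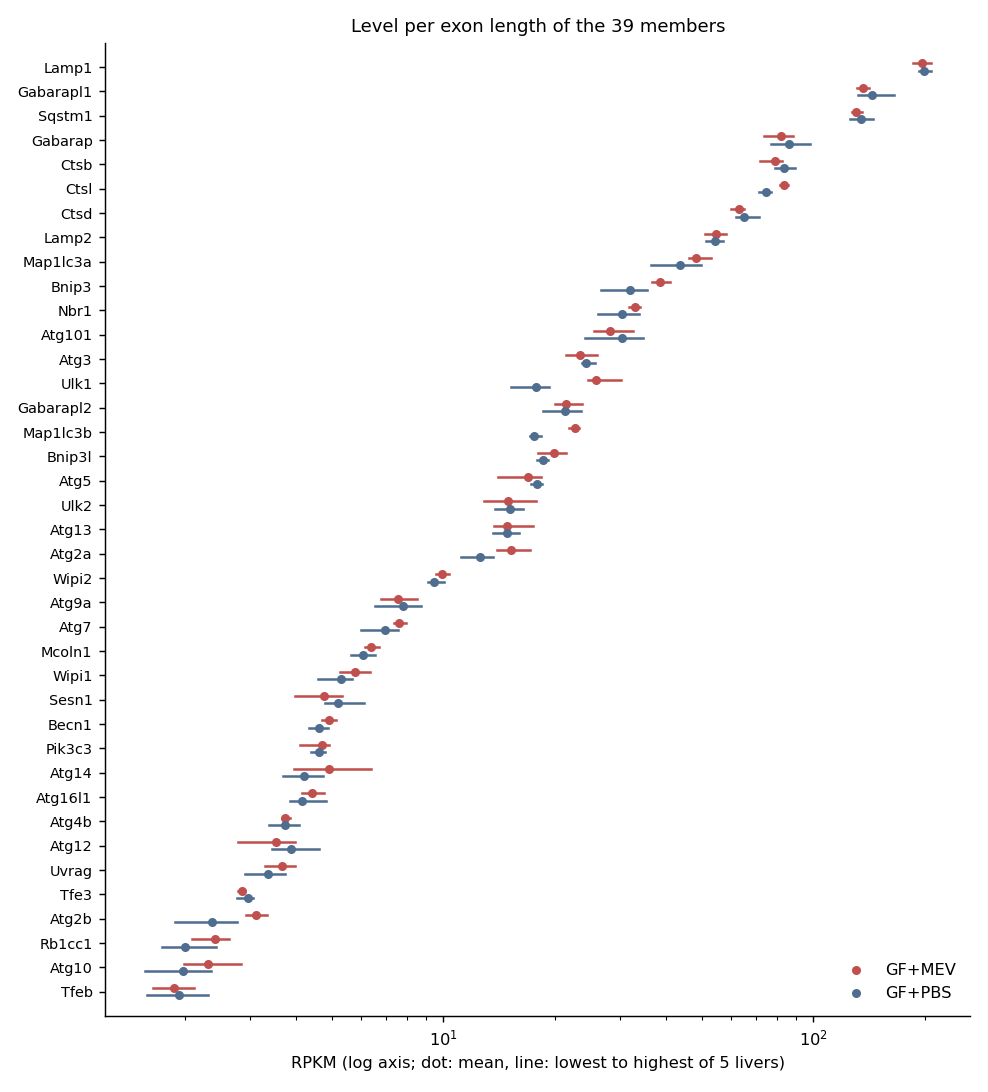
RPKM (horizontal axis, log scale) of the 39 members, ordered by their mean over all 10 livers, with dots for group means and lines from the lowest to the highest of 5 livers. The level runs from *Tfeb* near 1.87 to *Lamp1* near 196 RPKM, and the GF+MEV lines of *Ulk1*, *Map1lc3b*, *Atg2a*, *Atg2b*, *Ctsl* and *Bnip3* lie to the right of the GF+PBS lines.

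Replicates 1 with 3 and 4 with 5 were the closest GF+PBS pairs by counts (chi-square of 6.36 and 7.20 per gene). No label groups them so, and the grouping used here was taken from these same data. Within GF+PBS, replicates 1 and 3 were both above or both below replicates 2, 4 and 5 for 16 of the 39 members (41.0%). Among all tested genes 33.6% were so placed, and no test was made of these shares. The 6 members where replicates 1 and 3 were lower include *Ulk1*, *Atg2b* and *Bnip3*, and the 10 where they were higher include *Ctsl*, *Sqstm1* and *Gabarapl1*. When replicate 1 was added to 3 and replicate 4 to 5, which left 3 GF+PBS samples, 3 members were called higher and *Atg2a* was not (edgeR adjusted p = 0.080).

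Promoter windows, from 250 bases before to 50 after a start in RefSeq (GRCm38.p6), were found for 31 of the 39 members. The E-box CACGTG, read alike on both strands, was in a window of 9 of these 31, against 8.09% of the 27025 genes with a window. Its extended form TCACGTGA, the centre of the CLEAR element bound by TFEB, was in 3 (*Atg3*, *Ctsd* and *Mcoln1*), against 1.12% of genes. The FOXO motif GTAAACA, searched on both strands, was in 1, *Sesn1*, against 4.05%. A match is no more than these letters in this window. Of the 9 members with an E-box 0 were called by edgeR, where 7.64% of all tested genes were. DESeq2 called *Bnip3* and *Ctsl* among them, against 9.89% of all genes called in either direction. No window of the 4 members called by edgeR held any of the 3 motifs. These genes are too few for such counts to show whether members with an E-box differ from other genes. The bases before the annotated exons are printed for *Ulk1* (chr5:110810098-110810331, minus strand) and *Map1lc3b* (chr8:121590188-121590360, plus strand), as the members called most firmly, and for *Lamp1* (chr8:13159041-13159160, plus strand) and *Atg3* (chr16:45158709-45158784, plus strand), as members with several E-boxes whose level did not pass the test. Each runs from 5′ to 3′, and capitals mark CACGTG or TCACGTGA.
Ulk1: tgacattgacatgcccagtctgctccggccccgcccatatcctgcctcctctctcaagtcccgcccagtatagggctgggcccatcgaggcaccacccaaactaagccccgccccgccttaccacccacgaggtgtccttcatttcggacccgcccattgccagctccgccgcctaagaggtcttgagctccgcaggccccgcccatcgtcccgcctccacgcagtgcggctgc
Map1lc3b: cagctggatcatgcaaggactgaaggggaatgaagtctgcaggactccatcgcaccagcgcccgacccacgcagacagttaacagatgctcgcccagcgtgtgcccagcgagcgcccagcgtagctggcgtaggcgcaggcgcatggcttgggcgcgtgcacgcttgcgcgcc
Lamp1: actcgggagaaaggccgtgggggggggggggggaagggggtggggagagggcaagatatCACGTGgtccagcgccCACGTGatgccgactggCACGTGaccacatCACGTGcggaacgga
Atg3: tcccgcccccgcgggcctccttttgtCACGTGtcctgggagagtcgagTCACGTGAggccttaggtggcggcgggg

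Other genes of the pathway were counted over 5 lists, which were written with earlier results of these data known. Of 136 measured genes, 5 were higher and 2 lower (5.15%, against 7.64% of all tested genes), with a median log2 fold change of 0.03. Among 25 genes of the remaining autophagy machinery 2 were higher (8%). *Vmp1*, an endoplasmic reticulum scramblase that works beside ATG2, was at 94.7 to 139 CPM in GF+MEV and 78.2 to 99.2 CPM in GF+PBS livers (log2 fold change 0.45, SE 0.096, edgeR adjusted p = 0.011). *Atg16l2*, a paralog of *Atg16l1*, was at 20.7 to 31.9 CPM against 13.9 to 22.2 CPM (log2 fold change 0.53, SE 0.13, edgeR adjusted p = 0.023), and both pairs of ranges overlapped. *Atg16l2* no longer passed without GF+MEV replicate 1, 2 or 3 or GF+PBS replicate 3, with adjusted p-values of 0.055, 0.056, 0.053 and 0.060.

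Among 16 other receptors 2 were higher (12.5%, against 7.64% of all tested genes). *Retreg1*, also called Fam134b, a receptor for autophagy of the endoplasmic reticulum, was at 149, 181, 158, 170.0 and 171 CPM in GF+MEV and 87.0, 91.1, 86.1, 93.0 and 103 CPM in GF+PBS livers. The groups were wide apart, and its log2 fold change of 0.85 (SE 0.068, edgeR adjusted p = 1.4e-06) exceeded that of every one of the 39 members. *Ncoa4*, the receptor that delivers ferritin to the lysosome, was at 89.9 to 106 CPM against 62.7 to 78.3 CPM without overlap (log2 fold change 0.38, SE 0.070, edgeR adjusted p = 0.0033). Of 43 further lysosomal enzymes and membrane proteins 0 passed by edgeR (4 higher and 1 lower at an unadjusted p under 0.05), and of 15 subunits of the proton pump 0 passed (1 higher and 0 lower at that p). Over all tested genes the shares at that p were 10.8% and 10.4%.

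Of 37 genes of mTORC1, its TSC and GATOR regulators, AMPK and nutrient sensing, 1 was higher and 2 lower (8.11%, against 7.64% of all tested genes). *Ddit4*, which encodes REDD1, an inhibitor of mTORC1 through TSC, was at 88.6, 86.3, 57.9, 109 and 75.6 CPM in GF+MEV livers and at 5.61, 5.16, 6.43, 4.19 and 5.10 CPM in GF+PBS livers (log2 fold change 3.98, SE 0.16, edgeR adjusted p = 3e-09). *Flcn*, folliculin, which acts on the Rag GTPases that bring mTORC1 and TFEB to the lysosome, was at 39.7 to 45.2 CPM against 46.7 to 62.5 CPM (log2 fold change -0.33, SE 0.080, edgeR adjusted p = 0.021). *Prkab1*, the beta 1 subunit of AMPK, was at 19.0 to 26.6 CPM against 27.9 to 34.3 CPM (log2 fold change -0.39, SE 0.090, edgeR adjusted p = 0.017). Neither overlapped. Without GF+MEV replicate 5 or GF+PBS replicate 4 the adjusted p of *Flcn* was 0.054 and 0.062. Values of 5 of the 37 genes did not overlap between the groups (13.5%, against 7.39% of all tested genes). These include the uncalled *Sesn2* (log2 fold change 0.36) and *Tfec* (-0.78), each with an edgeR adjusted p of 0.053.

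**Figure D5:**
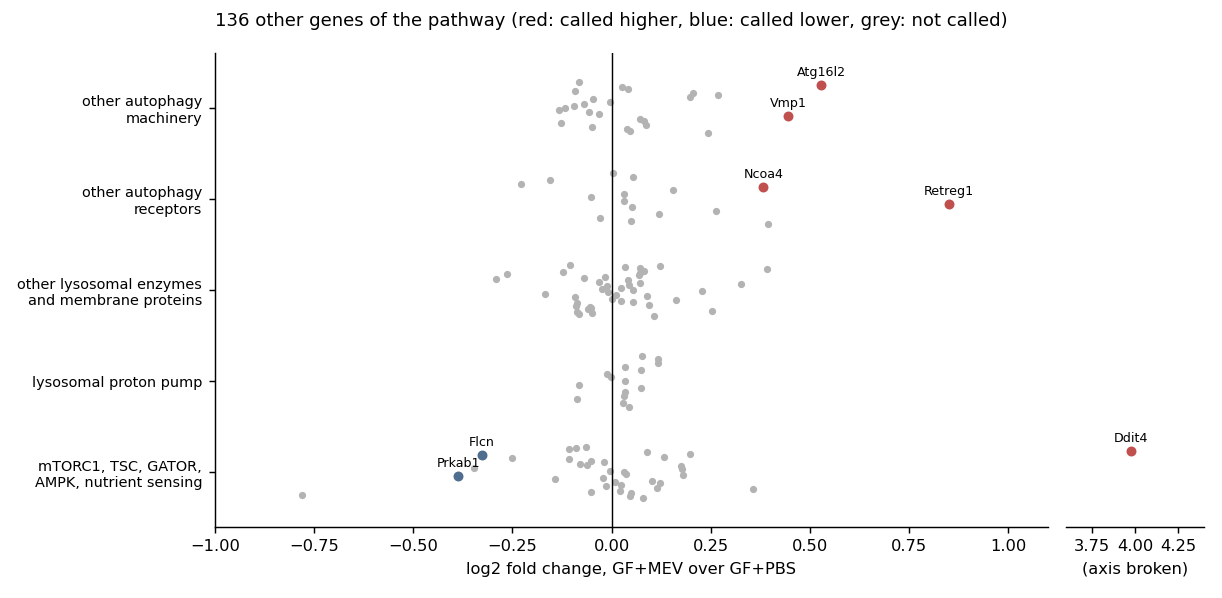
Log2 fold change of GF+MEV over GF+PBS (horizontal axis, broken before *Ddit4*) for 136 other genes of the pathway in 5 lists (vertical axis), with a dot per gene, red for called higher, blue for called lower and grey for not called. The 7 called genes are named, and no lysosomal enzyme or proton pump gene is among them.

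Cell type markers moved with the groups in part. Summed hepatocyte markers were at 83877 to 102546 CPM in GF+MEV and 87751 to 103650 CPM in GF+PBS livers, and of the 5 measured *Hnf4a* (log2 fold change 0.45) and *Cps1* (0.38) were called higher by edgeR. Of the 7 endothelial markers *Lyve1* was higher (0.84) and *Clec4g* lower (-0.48), and none of the 6 stellate cell markers was called. Of the 3 measured cholangiocyte markers *Krt19* was called higher, at 0.964 to 16.8 CPM against 0.303 to 0.781 CPM. *Sox9* (log2 fold change -0.98) and *Spp1* (0.52) were not called. At an unadjusted edgeR p under 0.05, 2 of the 3 were higher and 1 lower. The sum of the 3 overlapped between the groups, at 28.1 to 79.3 CPM against 23.2 to 29.7 CPM (exact permutation p = 0.032). The B cell genes *Cd79a* and *Cd79b* were lower, with a summed lymphocyte level of 3.86 to 4.88 CPM against 6.61 to 8.44 CPM (exact permutation p = 0.0079). For the hepatocyte, endothelial and stellate cell sums the exact permutation p was 0.95, 0.39 and 0.81. The part of these markers in the results for the members was not tested.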

How the data were processed

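RNA from whole liver of 10 GF mice was sequenced after preparation with a NEBNext Ultra kit, which is not stated to keep strand. Reads were mapped by the authors with STAR 2.7.3a against GRCm38 and assigned to Ensembl genes with HTSeq. By their account, genes totalling under 20 reads over all samples were dropped. Raw counts were deposited, not normalized. How that filter was applied to the deposited table was not tested, so shares over all tested genes hold for the deposited genes. HTSeq's strand setting is not given in the sources used here. The table holds 5 further columns that match no described sample, and these were not used.

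A gene was tested if its 10 counts added up to 20 or more (12147 of 12148). Symbols, positions and exon lengths came from GENCODE vM21 on GRCm38, in which 5 identifiers had no symbol. Groups were compared with edgeR 4.0.16 (R 4.3.3): TMM normalization, estimated dispersions and a quasi-likelihood fit on group alone, with Benjamini-Hochberg adjustment over all tested genes and a threshold of 0.05. SE and 95% intervals came from the same fit. RPKM is CPM divided by the length of the merged exons in kb. Single values were compared by two-sided exact permutation. Libraries held 15746119 to 20523649 counts, and no pair of libraries of a group agreed within counting error (chi-square of at least 6.36 per gene).

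The members, gene lists, markers, motifs and tests were chosen with earlier results of these data known, and the within-liver ratios after the values were seen here. Every member is accounted for, those past the threshold with full statistics, and of the other lists the genes past it are named. Alternatives were DESeq2 1.42.0, limma-voom (limma 3.58.1), RLE and upper-quartile scaling, library totals alone, no filter, a stricter filter of 10 counts in each library, a replicate block, each liver left out in turn, and GF+PBS replicates 1 with 3 and 4 with 5 summed. The fits were also run on simulated counts with larger changes than those of the members, which checks the code and not the results here. RefSeq promoter windows were matched by symbol. No protein sequences were used here.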

Additional observations from a re-analysis of the deposited data

Results flagged for a closer look

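Among 80 groups of 5 values (39 members and the TMM factor, each in both groups), 6 had a liver far from the others by Dixon's ratio, where chance gives about 4. *Ulk1* was at 196 CPM in GF+MEV replicate 3, against 160.2 to 161 in the other 4 livers of that group. *Atg13* was at 76.6 CPM in GF+MEV replicate 1, against 60.0 to 63.8. *Pik3c3* was at 18.3 CPM in GF+MEV replicate 2, against 21.3 to 21.9. *Tfe3* was at 25.7 CPM in GF+PBS replicate 3, against 27.8 to 28.3. *Ctsd* was at 168 CPM in GF+PBS replicate 1, against 145 to 151. Among the TMM factors of GF+MEV livers, that of replicate 2 was lowest at 0.890, and the others lay between 0.978 and 1.01. Of these genes, *Ulk1* is a called one, and without GF+MEV replicate 3 its log2 fold change was 0.47 (edgeR adjusted p = 0.00098).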

How the results depend on the processing

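Over 19 alternatives, *Ulk1* (log2 fold change 0.46 to 0.56) and *Map1lc3b* (0.29 to 0.38) passed the threshold in 19 of 19, with adjusted p-values of at most 0.0052 for each, *Atg2b* in 16 and *Atg2a* in 9. No member was called lower in any of them. The count of members called higher was 4 in the main fit, 2 with library totals alone (*Ulk1* and *Map1lc3b*), and 2 to 4 when a liver was left out. *Bnip3* passed with DESeq2 alone and *Ctsl* with DESeq2 and limma-voom. The median log2 fold change of the members was 0.0255 in the main fit, -0.0165 with upper-quartile scaling, -0.0458 with library totals alone, and 0.0146 to 0.0573 when a liver was left out. Over all genes the median then stood at -0.046 and -0.078 under those scalings. Of the 35 uncalled members, 9 changed sign in some setting, none with a main log2 fold change beyond 0.072. Other pathway genes called numbered 7 in the main fit, 11 with DESeq2 and 6 with a replicate block. The replicate block lost *Flcn* (edgeR adjusted p = 0.051) and *Atg16l2* (0.059) and gained a gene uncalled in the main fit. With GF+PBS livers summed the count was 5, and both lower calls were lost, *Flcn* (edgeR adjusted p = 0.055) and *Prkab1* (0.051). The cause of these shifts was not tested. The labels do not say whether replicate numbers pair the livers. Deviations of same-numbered livers correlated at -0.19 to 0.17, and those of differently numbered livers at -0.19 to 0.12. Correlations this weak cannot exclude a pairing. With a replicate block 3 members were called, *Atg2a* (adjusted p = 0.089) not among them, and 792 genes in all against 928. Summing GF+PBS replicates 1 with 3 and 4 with 5 left 561 genes called, against 928, and 3 members. At 5 livers per group, the median 95% interval reached 0.15 on the log2 scale to either side.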
